A study of Homo sapiens with 12 samples.

Results

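The genes described here are 8 genes of retinoic acid synthesis and signalling, out of 13869 genes in the deposited table: the retinaldehyde dehydrogenase genes ALDH1A1 and ALDH1A3, the retinaldehyde reductase gene DHRS3, the retinoic acid carrier gene CRABP2, and the nuclear receptor genes RARA, RARG, RXRA and RXRB. They were selected by symbol from a named list, all 8 were present in the table, and all 8 passed the filter on low counts. Presence in the table was itself selected on a measured value: every gene in it had an RPKM, the authors' read count scaled for gene length and library size, above 1 in at least 1 library. The lowest of the 8 maxima was 2.11 RPKM for RARA, and the lowest maximum of any gene in the table was 1.0005 RPKM. The list was drawn up with earlier results of these libraries known, the lower ALDH1A1 of treated OVSAHO cells among them. Counts of its genes called are therefore a description and not independent support.

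RNA was sequenced from 2 human ovarian cancer cell lines, both labelled wild type: MDAH-2774, labelled endometrioid, and OVSAHO, labelled high-grade serous. Cells of each line were given 500 nM lestaurtinib, an indolocarbazole inhibitor of FLT3, JAK2 and other kinases, or the solvent DMSO as vehicle for 24 h, in phenol red-free medium with serum. Each of the 4 groups held 3 libraries. The question was which genes the compound regulates. Each tumour type is represented by 1 line, so type and line cannot be told apart, and nothing in the labels says that replicates were separate cultures, so p-values measure the spread between libraries, which may be technical.

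Retinoic acid is made from vitamin A in steps. Retinol is oxidised to retinaldehyde, a step that DHRS3 runs in reverse, and the ALDH1A enzymes then oxidise retinaldehyde irreversibly to retinoic acid. CRABP2 binds retinoic acid in the cytosol and hands it to the retinoic acid receptors (RARs), which bind DNA as dimers with the retinoid X receptors (RXRs), and CYP26 enzymes break retinoic acid down. ALDH1A1 and ALDH1A3 also give cells aldehyde dehydrogenase activity, which is widely used to mark stem-like cells in ovarian cancer.

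Total counts per library ran from 32875940 to 55941446. Of 8 epithelial and ovarian line markers, 7 were measured in both lines, summing to 1735 to 2888 CPM (counts scaled by TMM library size) over the 12 libraries. Several moved with the drug. PAX8, the mullerian lineage factor, was at 295.4 to 310 CPM in vehicle and 181 to 186 CPM in treated MDAH-2774 cells, and at 258 to 296 and 227 to 247 CPM in OVSAHO. The keratin gene KRT18 was at 322 to 335 CPM in vehicle and 679.5 to 708.5 CPM in treated OVSAHO cells, where KRT8 and KRT7 also rose and WT1 fell. In MDAH-2774, KRT18 went the other way, from 667 to 694 CPM in vehicle to 600 to 608 CPM in treated cells. KRT8 and WT1 also fell there, and KRT7 and CDH1 rose. EPCAM did not pass in either line, nor did CDH1 in OVSAHO. Of 5 fibroblast, 5 blood cell and 4 endothelial markers, 1 each was measured. COL1A1 was at most 6.25 CPM, CD68 was 24.1 to 29.2 CPM in vehicle and 8.88 to 10.5 CPM in treated MDAH-2774 cells, and CDH5 was 1.27 to 1.80 CPM in vehicle and 11.99 to 14.7 CPM in treated MDAH-2774 cells. In OVSAHO, CD68 was 14.3 to 15.3 CPM in vehicle and 8.73 to 12.5 CPM in treated cells, and CDH5 0 to 0.316 and 1.11 to 1.79 CPM. The part of these shifts in the results was not tested. In bulk RNA, fewer cells that express a gene and less RNA per cell cannot be told apart.

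The promoter windows of the 3 genes that fell under the drug in at least 1 line are shown because their start regions can be set side by side. Each runs from 250 bases before to 50 bases after the gene's start (RefSeq, GRCh38.p14). It is written 5′ to 3′ on the gene's strand, with CCAAT boxes and receptor core sequences in capitals. For all 3 genes this RefSeq start lies inside the gene coordinates given below, which come from the deposited table. Positions are counted from the RefSeq start.
ALDH1A1, chr9:72953004-72953303, minus strand: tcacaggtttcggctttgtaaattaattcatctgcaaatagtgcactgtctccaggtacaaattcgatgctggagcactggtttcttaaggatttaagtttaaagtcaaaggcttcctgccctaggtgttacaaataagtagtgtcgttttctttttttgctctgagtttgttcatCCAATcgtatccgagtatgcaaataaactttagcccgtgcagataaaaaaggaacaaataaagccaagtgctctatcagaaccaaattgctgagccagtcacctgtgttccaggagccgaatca
ALDH1A3, chr15:100879581-100879880, plus strand: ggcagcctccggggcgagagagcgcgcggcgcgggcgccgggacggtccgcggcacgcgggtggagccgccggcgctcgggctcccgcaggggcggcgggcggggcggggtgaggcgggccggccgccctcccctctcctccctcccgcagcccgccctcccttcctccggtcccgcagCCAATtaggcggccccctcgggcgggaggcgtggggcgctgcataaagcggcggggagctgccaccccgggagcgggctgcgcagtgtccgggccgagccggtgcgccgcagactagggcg
CRABP2, chr1:156705735-156706034, minus strand: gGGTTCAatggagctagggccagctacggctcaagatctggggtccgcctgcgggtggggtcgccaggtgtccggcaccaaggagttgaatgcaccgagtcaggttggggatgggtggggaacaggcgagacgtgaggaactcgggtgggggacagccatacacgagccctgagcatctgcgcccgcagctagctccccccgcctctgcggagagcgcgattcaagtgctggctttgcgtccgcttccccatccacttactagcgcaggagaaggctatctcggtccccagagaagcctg
The windows were searched on both strands for the core sequences that RAR and RXR dimers bind as pairs, AGGTCA with its variants GGGTCA, then AGTTCA, and also GGTTCA, alone and as direct repeats with 1, 2 or 5 bases between the cores, and for CCAAT and TATAAA. ALDH1A1 held a CCAAT box at position -74 and ALDH1A3 one at position -71, counted from the start, and 35.7% of 27305 promoter windows held one. CRABP2 held 1 receptor core, GGTTCA at position -249, and 38.7% of windows held at least 1 core. No direct repeat and no TATAAA was found in these 3 windows. Repeats with 1, 2 or 5 bases between cores were in 0.132%, 0.0439% and 0.0806% of all windows, and TATAAA in 12%. A match of letters is not a binding site, and a window without one says nothing of sites elsewhere.

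In untreated cells the lines expressed different retinaldehyde dehydrogenase genes. ALDH1A1 (chr9:72900662-72953317, hg38 as for all genes here) had 0 counts in all 6 MDAH-2774 libraries. It was at 10.9, 13.9 and 13.5 CPM in the 3 vehicle OVSAHO libraries, at least 165-fold above the floor of 3 counts per library in vehicle MDAH-2774 cells. ALDH1A3 (chr15:100879692-100916626) showed the opposite order. It was at 514, 511 and 524 CPM in vehicle MDAH-2774 cells and at 2.66, 2.22 and 3.08 CPM in vehicle OVSAHO cells, a log2 difference of -7.61 ± 0.11 (SE).

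Per transcript length, the summed level of the 2 genes was 149.9 ± 2.25 RPKM (SD, n = 3) in vehicle MDAH-2774 and 5.77 ± 0.627 RPKM in vehicle OVSAHO cells. ALDH1A1 made up 86.2%, 90.5% and 87.0% of that sum in the 3 vehicle OVSAHO libraries and none of it in MDAH-2774. The carrier gene CRABP2 (chr1:156699606-156705816) followed ALDH1A3 in the order of the lines. Its CPM was 127, 122 and 117 in vehicle MDAH-2774 and 13.02, 12.2 and 12.8 in vehicle OVSAHO cells, a log2 difference of -3.26 ± 0.13.

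The receptor genes differed less between untreated lines. RARG (chr12:53210566-53232256), which encodes retinoic acid receptor gamma, was 1.07 ± 0.10 higher in OVSAHO on the log2 scale. RXRB (chr6:33193585-33200853), encoding retinoid X receptor beta, was 0.76 ± 0.07 higher, and RXRA (chr9:134326463-134440586), encoding the alpha form, had a log2 difference of -0.84 ± 0.11. RARA (chr17:40309171-40357643), encoding retinoic acid receptor alpha, did not pass, with a log2 difference of 0.06 and a 95% interval from -0.38 to 0.49. DHRS3 (chr1:12567910-12618361) was lower in OVSAHO by a log2 difference of -0.42 ± 0.15 (edgeR adjusted p = 0.0188). That call was lost without vehicle MDAH-2774 replicate 2 (adjusted p = 0.062) and without vehicle OVSAHO replicate 1 (0.087).

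Of the 8 genes, 3 were called higher in OVSAHO, 4 lower and 1 not at all, where 77.4% of all 13498 genes tested were called (38.6% higher and 38.9% lower). A call between these lines is thus the common case. The 3 called higher include ALDH1A1, for which no fold was computed, as no MDAH-2774 library had a count. ALDH1A1, at 0 RPKM in every MDAH-2774 library, exceeded 1 RPKM in OVSAHO alone, and ALDH1A3, at most 0.897 RPKM in OVSAHO, in MDAH-2774 alone. Each was in the table only through the line where it was high, so their differences between lines are a description. The other 6 genes exceeded 1 RPKM in both lines. This comparison shares its vehicle libraries with the drug comparisons, as does the difference of drug changes. The plot of CPM by library shows all 96 values.

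**Figure D1:**
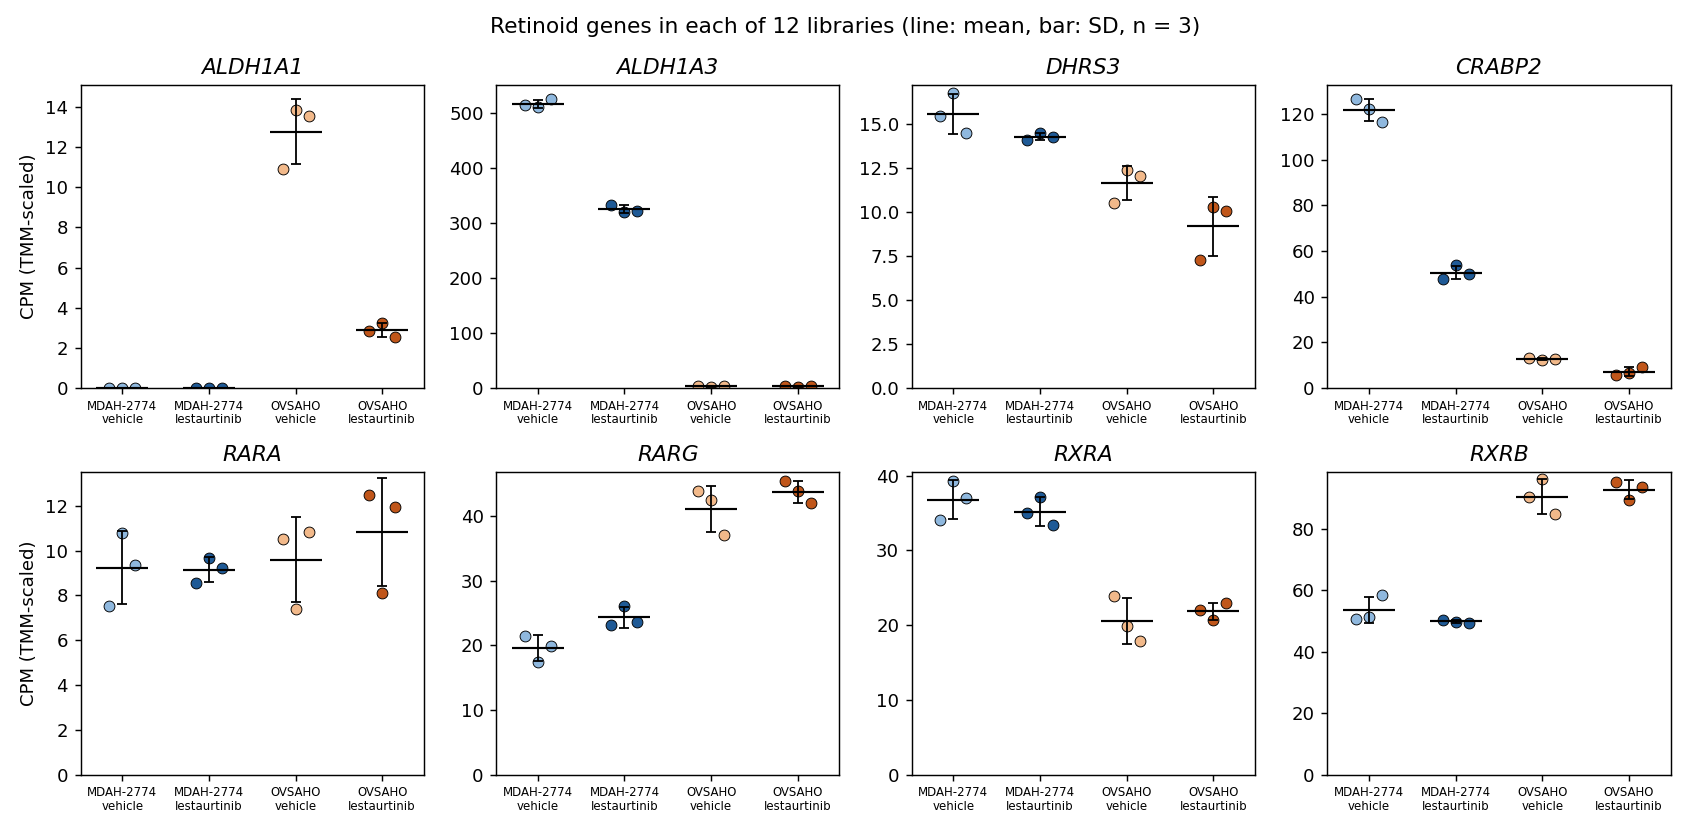
CPM on TMM-scaled library sizes (y axis, from 0, own scale per gene) of the 8 retinoid genes in each of 12 libraries, by line and treatment (x axis). Points are libraries (blue MDAH-2774, orange OVSAHO, darker with the drug), lines are group means and bars are SD (n = 3). ALDH1A1 lies at 0 in all MDAH-2774 libraries, and treated libraries lie below vehicle libraries for ALDH1A3 in MDAH-2774, for ALDH1A1 in OVSAHO and for CRABP2 in both lines.

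The order of levels within a group was read per length, as RPKM. In vehicle MDAH-2774 cells ALDH1A3 was highest, at 147.6 to 152 RPKM, followed by CRABP2 at 104.7 to 112.5 (each range from the lowest to the highest library), then RXRB at 17.4 to 20.3. DHRS3, RARG and RXRA followed between 4.83 and 6.81 RPKM, with ranges that overlapped their neighbours', and RARA lay at 1.43 to 2.10. In vehicle OVSAHO cells RXRB was highest at 26.5 to 29.8 RPKM. RARG at 9.47 to 11.2 and CRABP2 at 9.75 to 10.5 overlapped, as did ALDH1A1 at 4.36 to 5.47 and DHRS3 at 3.81 to 4.44. RXRA, RARA and ALDH1A3 came last, the last at 0.575 to 0.808 RPKM. In treated OVSAHO cells ALDH1A1 stood below RARA, at 0.988 to 1.27 against 1.38 to 2.11 RPKM. RXRB was the higher RXR gene and RARG the higher RAR gene in every library. RXRB held 77.9% ± 1.70 of the summed RXRA and RXRB level in vehicle MDAH-2774 and 91.4% ± 1.09 in vehicle OVSAHO cells.

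Lestaurtinib lowered a retinaldehyde dehydrogenase gene in each line, and in each line it was the one that led in untreated cells. ALDH1A1 had no counts in MDAH-2774 and could not fall there, and ALDH1A3 was low in OVSAHO. The lower ALDH1A1 of treated OVSAHO cells was also known when the list was drawn up, so the match with the leading gene is a description. In MDAH-2774 cells ALDH1A3 was at 333, 320.1 and 322 CPM with the drug against 514, 511 and 524 with vehicle. All 3 treated libraries lay below all 3 vehicle libraries, a log2 change of -0.67 ± 0.07 (edgeR adjusted p = 7.1e-06), or 1.59-fold. In OVSAHO cells ALDH1A1 was at 2.86, 3.22 and 2.53 CPM with the drug, from 88, 99 and 98 counts, against 10.9, 13.9 and 13.5 CPM with vehicle, from 579, 569 and 514 counts. The groups did not overlap, and the log2 change was -2.16 ± 0.30 (adjusted p = 0.00032), or 4.46-fold. In limma on log2(RPKM + 1), where the pseudocount weighs on low genes, it was -1.51.

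ALDH1A3 in OVSAHO cells stayed near its low level, at 3.504, 2.34 and 2.55 CPM with the drug against 2.66, 2.22 and 3.08 with vehicle, overlapping groups. Its log2 change was 0.07, with a 95% interval from -0.21 to 0.36. The drug change of ALDH1A3 differed between the lines by a log2 value of 0.74 ± 0.16, OVSAHO minus MDAH-2774 (adjusted p = 0.0036). The OVSAHO side of this test rests on 72 to 141 counts per library, and the gene was in the table only through MDAH-2774. ALDH1A3 was the only one of the 7 genes with counts in all groups to pass this test, which called 16.8% of all genes, 9.22% higher and 7.59% lower. No fold was computed for ALDH1A1 in MDAH-2774, where no library had a count, and the difference between lines was not tested for it.

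Summed over both dehydrogenase genes, the level went from 149.9 ± 2.25 to 97.4 ± 2.60 RPKM in MDAH-2774 and from 5.77 ± 0.627 to 1.84 ± 0.186 RPKM in OVSAHO cells. ALDH1A1 made up 55.4%, 67.7% and 60.1% of the sum in the treated OVSAHO libraries, below the 86.2% to 90.5% of vehicle. Exons of an antisense gene, AC015712.2, together cover 43.9% of the ALDH1A3 exon bases on the opposite strand. Libraries were stranded, but whether counting used the strand is not stated, so reads of the pair cannot be told apart with certainty. ALDH1A3 also shared 16 of 5812 50-base stretches with AC015712.5, whose exons overlap 63 of its exon bases on the same strand. No same-strand 50-base stretch of ALDH1A1, CRABP2, DHRS3, RARA, RARG, RXRA or RXRB transcripts was shared with transcripts of another gene in GENCODE release 29. Reverse complements were not compared, so the opposite-strand overlaps of RARA and RXRB described below could not appear in this search. By exon coordinates, the microRNA gene MIR4669 overlaps 0.848% of the RXRA exon bases on the same strand.

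**Figure D2:**
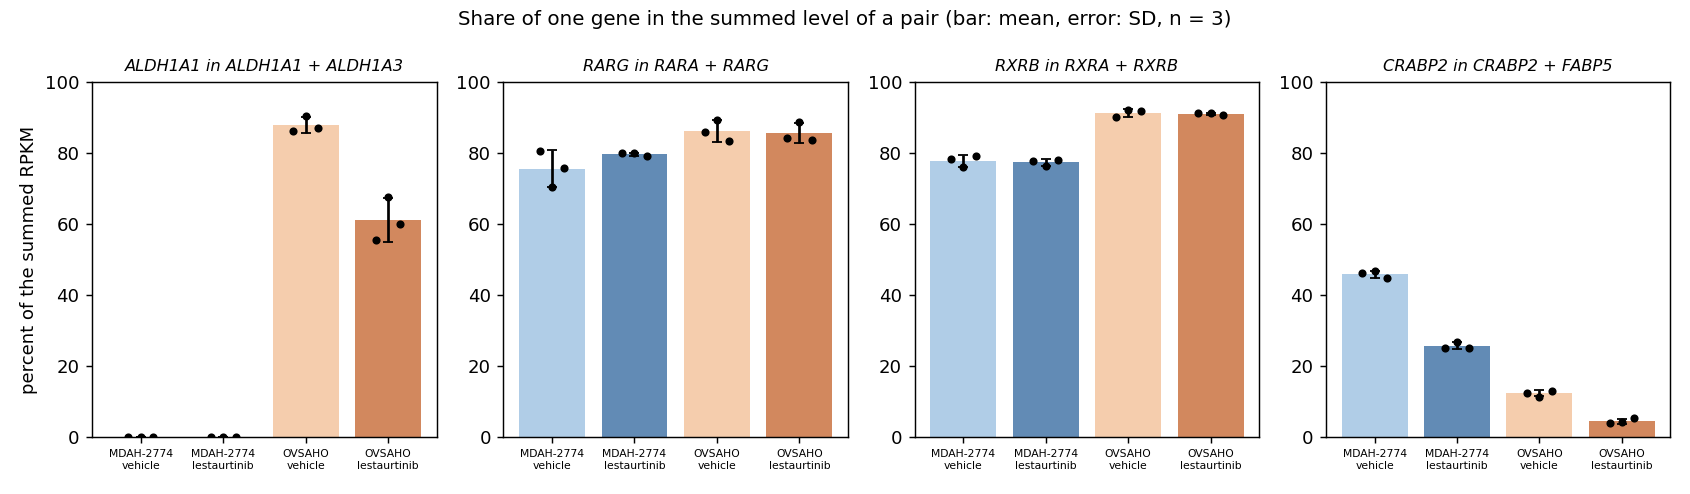
Share (y axis, percent of the summed RPKM of a pair of genes) of ALDH1A1 beside ALDH1A3, RARG beside RARA, RXRB beside RXRA and CRABP2 beside FABP5, by line and treatment (x axis). Bars are means with SD (n = 3) and points are libraries. The ALDH1A1 share is lower in treated than in vehicle OVSAHO libraries and the CRABP2 share lower in treated libraries of both lines, while the RXRB share is 77.9% in vehicle and 77.4% in treated MDAH-2774 cells.

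CRABP2 was lower with the drug in both lines. In MDAH-2774 it was at 47.8, 53.7 and 49.9 CPM with the drug against 127, 122 and 117 with vehicle, a log2 change of -1.27 ± 0.12 (adjusted p = 1.3e-06). In OVSAHO it was at 5.61, 6.44 and 9.26 CPM against 13.02, 12.2 and 12.8, a log2 change of -0.82 ± 0.13 (adjusted p = 4e-04). The groups did not overlap in either line, and treated OVSAHO replicate 3 lay nearest to vehicle. The changes of the lines differed by 0.45 ± 0.18 (adjusted p = 0.097), which did not pass. Without treated OVSAHO replicate 1 the difference was 0.58 and did pass (adjusted p = 0.023).

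FABP5, another carrier of retinoic acid, known for handing it to the receptor PPAR delta, did not pass in MDAH-2774 and rose in OVSAHO. It was at 90.2 ± 2.86 and 91.6 ± 1.75 CPM in vehicle and treated MDAH-2774 cells and went from 57.1 ± 2.83 to 96.8 ± 8.16 CPM in OVSAHO cells, a log2 change of 0.76 ± 0.07 (adjusted p = 9.5e-07). CRABP2 thus made up 45.8% ± 1.03 of the summed CRABP2 and FABP5 level in vehicle and 25.7% ± 1.00 in treated MDAH-2774 cells. In OVSAHO the shares were 12.2% ± 0.828 and 4.35% ± 0.754. FABP5 has processed pseudogenes, so some of its reads may be uncertain. CRABP1, the close relative of CRABP2, was at 0 in vehicle and at a mean of 0.0064 CPM in treated MDAH-2774 cells and did not pass in OVSAHO, at 11.1 ± 0.898 and 9.51 ± 1.25 CPM.

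DHRS3, which is itself a retinoic acid-induced gene in many cells, did not pass in either line. It was at 15.5, 16.8 and 14.5 CPM with vehicle and 14.1, 14.5 and 14.3 CPM with the drug in MDAH-2774, overlapping groups with a log2 change of -0.12 and a 95% interval from -0.44 to 0.20. In OVSAHO it was at 10.5, 12.4 and 12.1 CPM with vehicle and 7.27, 10.3 and 10.1 CPM with the drug. All treated libraries lay below the vehicle libraries there, yet the log2 change of -0.34 ± 0.15 had an adjusted p of 0.16.

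Of the 4 receptor genes, RARG in MDAH-2774 alone was called. It was at 21.4, 17.4 and 19.9 CPM with vehicle and 23.2, 26.1 and 23.6 CPM with the drug in MDAH-2774, groups that did not overlap, with a log2 change of 0.31 ± 0.10 (adjusted p = 0.047). This call stood at the threshold. It was lost in DESeq2 (adjusted p = 0.051), with RLE scaling (0.062), with no filter on low counts (0.054), with the replicate number as a block (0.087), and on leaving out any 1 of 10 libraries, at adjusted p from 0.056 to 0.19, that is all but vehicle MDAH-2774 replicate 1 and vehicle OVSAHO replicate 3. In OVSAHO, RARG was at 43.8, 42.5 and 37.1 CPM with vehicle and 45.4, 43.9 and 42.0 CPM with the drug, overlapping groups with a 95% interval of the log2 change from -0.13 to 0.30.

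RARA was at 7.55, 10.8 and 9.37 CPM with vehicle and 8.56, 9.65 and 9.22 CPM with the drug in MDAH-2774, and at 10.5, 7.41 and 10.8 against 12.5, 8.09 and 11.9 CPM in OVSAHO. The groups overlapped in both lines, and the 95% intervals of the log2 change were the widest of the receptor genes, -0.45 to 0.42 and -0.26 to 0.61. RARA-AS1, an antisense gene, covers 25.4% of the RARA exon bases on the opposite strand, and AC080112.3 covers 5.33% there.

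RXRA was at 34.0, 39.3 and 37.0 CPM with vehicle and 35.0, 37.2 and 33.4 CPM with the drug in MDAH-2774, and at 23.8, 19.9 and 17.9 against 21.96, 20.6 and 22.9 CPM in OVSAHO. Its groups overlapped, with intervals of -0.30 to 0.17 and -0.15 to 0.33. RXRB was at 50.7, 51.4 and 58.5 CPM with vehicle and 50.5, 49.8 and 49.4 CPM with the drug in MDAH-2774, where the treated libraries lay just below the vehicle libraries, with an interval of -0.26 to 0.05. In OVSAHO it was at 90.4, 96.3 and 84.8 CPM against 95.4, 89.4 and 93.6 CPM, with an interval of -0.12 to 0.19. The zinc transporter gene SLC39A7 on the opposite strand covers 11.2% of the RXRB exon bases. SLC39A7 was at 86.7 ± 1.23 and 95.3 ± 1.61 RPKM in vehicle and treated MDAH-2774 cells. In OVSAHO it was at 80.0 ± 2.12 and 93.0 ± 3.36 RPKM, a log2 change of 0.24 (edgeR adjusted p = 0.0031). With the strand of counting not stated, reads of this pair cannot be told apart with certainty. Any part of SLC39A7 reads in the RXRB levels and shares was not tested.

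Over the list, 1 gene was called higher and 2 lower of the 7 with counts in MDAH-2774, where 17.1% of all genes were called, 8.08% higher and 9.05% lower. In OVSAHO none was higher and 2 of 8 were lower, where 15.7% of all genes were called, 9.19% higher and 6.54% lower. Groups did not overlap for 4 of the 8 genes in MDAH-2774 and for 3 in OVSAHO, against 38.8% and 30.5% of all genes tested. The balance of directions over all genes depended on scaling. Higher genes were 47.1% of the calls in MDAH-2774, and 60% in limma on log2(RPKM + 1). In OVSAHO they were 58.4%, and 46% with upper-quartile scaling, and for the difference between lines 54.9%, and 39.5% with upper-quartile scaling. The drug calls of ALDH1A1 in OVSAHO, ALDH1A3 in MDAH-2774 and CRABP2 in both lines held in all 9 other settings and without each library in turn, 21 settings in all. Leaving out a library of the other line acts on a drug change only through the shared filter, scaling and spread. The difference of the ALDH1A3 drug change between lines held in the 20 settings run for it.

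**Figure D3:**
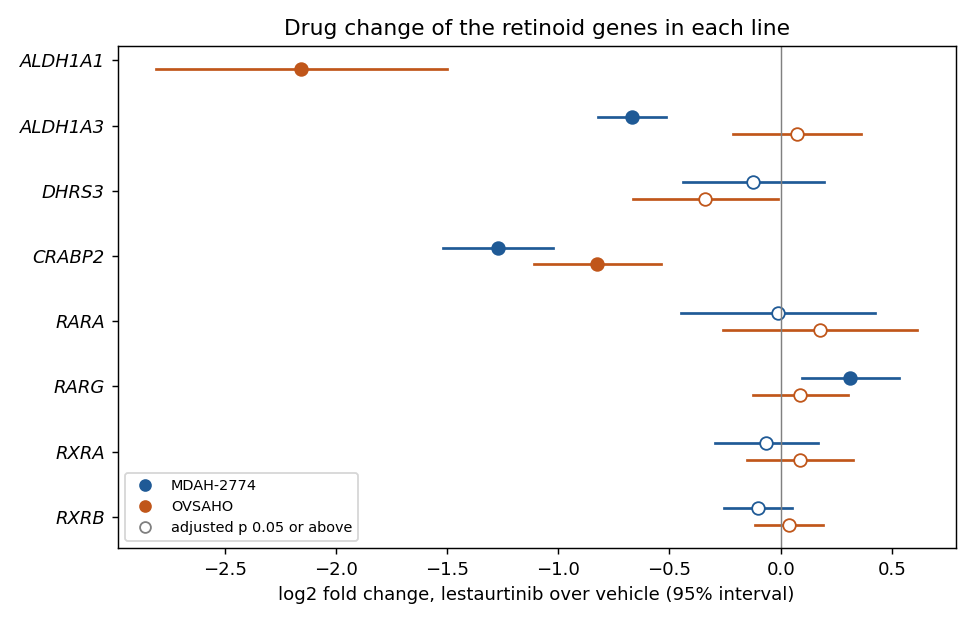
Log2 fold change of lestaurtinib over vehicle (x axis) of the 8 genes in MDAH-2774 (blue) and OVSAHO (orange), with 95% intervals from the edgeR fit. Filled points had an adjusted p under 0.05, and ALDH1A1 has no value in MDAH-2774, where it had no counts. ALDH1A1 in OVSAHO, ALDH1A3 in MDAH-2774 and CRABP2 in both lines lie left of 0 with filled points, ALDH1A3 in OVSAHO is an open point at 0.07, and the intervals of RARA, RXRA and RXRB include 0 in both lines.

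Genes that act upstream and downstream were read from 8 lists of 101 genes, of which 72 were in the table and all of these were tested. The list counts below stand beside the shares over all genes. These were 8.08% called higher and 9.05% lower in MDAH-2774, and 9.19% and 6.54% in OVSAHO. The lists are short, and whether their counts differ from these shares was not tested. The other receptor genes, RARB and RXRG, and ALDH1A2, CYP26A1 and RARRES1 were not analysed here. RDH10, the dehydrogenase that oxidises retinol to retinaldehyde and so works against DHRS3, rose in both lines. It went from 83.4 ± 2.90 to 138.9 ± 2.58 CPM in MDAH-2774 and from 33.4 ± 1.61 to 44.5 ± 3.98 CPM in OVSAHO, log2 changes of 0.74 ± 0.07 and 0.42 ± 0.07 (adjusted p = 2.2e-06 and 0.00091). Of the 7 genes of retinol and retinaldehyde interconversion, 1 rose and 0 fell in MDAH-2774 and 2 rose and 1 fell in OVSAHO, with median log2 changes of -0.03 and 0.11 beside 0.01 and 0 over all genes. List medians leave out genes without counts in a group or under 3 counts in every library. In OVSAHO, RDH11, a retinaldehyde reductase gene, rose by 0.36 and DHRS7 had a log2 change of -0.57, a call lost without vehicle OVSAHO replicate 2 (adjusted p = 0.052) and in the fit of that line alone (0.15).

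Of 7 genes of retinol uptake, storage and transport, 1 rose, 1 fell and 5 did not pass in MDAH-2774, and none passed in OVSAHO. STRA6, the membrane receptor that takes up retinol and a known retinoic acid target, was at 69.0 ± 0.995 CPM in vehicle and 53.7 ± 1.29 in treated MDAH-2774 cells, a log2 change of -0.36 ± 0.10 (adjusted p = 0.015) that was lost without treated replicate 1 or 3 (0.066 and 0.058) and in limma on log2(RPKM + 0.1) (0.059). PNPLA4, a lipase known to act on retinyl esters, rose by 0.45.

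Of 3 genes of retinoic acid synthesis, binding and breakdown outside the 8 (FABP5, CRABP1 and CYP26B1), none passed in MDAH-2774 and 1 rose in OVSAHO. CYP26B1, which encodes a retinoic acid-degrading enzyme, was at 11.1 ± 3.25 and 15.5 ± 1.23 CPM in vehicle and treated MDAH-2774 cells, with a log2 change of 0.48 that did not pass, and under 1 CPM in OVSAHO. Of 17 retinoic acid target genes, 4 were called higher and 3 fell in MDAH-2774 and 3 rose and 2 fell in OVSAHO, with medians of 0.24 and -0.04. One of the 4, HOXB2, named after its values were seen, was at 0 CPM in vehicle and at a mean of 0.065 CPM in treated MDAH-2774 cells, so it has no fold and its call rests on very few counts. TGM2, the transglutaminase gene, moved in opposite directions, from 1148 ± 25.9 to 594 ± 13.2 CPM in MDAH-2774 and from 622 ± 40.2 to 1956 ± 51.1 CPM in OVSAHO. TNFAIP2 did likewise, with log2 changes of -0.50 and 0.52. BHLHE40, a transcriptional repressor gene, fell in both lines, by 1.25 and 0.41 on the log2 scale (edgeR adjusted p = 0.033 in OVSAHO). GPRC5A, an orphan receptor gene induced by retinoic acid, rose by 0.46 and 1.18. The BHLHE40 call in OVSAHO and the GPRC5A call in MDAH-2774 were not recomputed in other settings. PLAAT4 was at 8.42 ± 0.412 CPM in vehicle and 2.33 ± 0.897 in treated OVSAHO cells, a log2 change of -1.85 ± 0.48 (adjusted p = 0.014) that was lost without treated OVSAHO replicate 2 (0.059). In MDAH-2774 it was under 1 CPM and did not pass, though it was called higher there without vehicle MDAH-2774 replicate 3 (log2 change 1.99, adjusted p = 0.031).

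The other aldehyde dehydrogenase genes mostly act on other substrates. Of 12 measured, 4 rose and 0 fell in MDAH-2774 (median 0.29) and 0 rose and 1 fell in OVSAHO (median -0.02). Over all genes, 8.08% were called higher and 9.05% lower in MDAH-2774, and 9.19% and 6.54% in OVSAHO. ALDH5A1, which encodes succinic semialdehyde dehydrogenase, rose from 19.9 ± 2.07 to 31.1 ± 1.28 CPM in MDAH-2774. ALDH3B1 and ALDH7A1 rose there by 0.75 and 0.34 on the log2 scale. ALDH3A2, the fatty aldehyde dehydrogenase gene, had a log2 change of -0.36 in OVSAHO and 0.01 in MDAH-2774.

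Of 10 receptors that pair with RXRs or belong to partner families, 2 rose and 0 fell in MDAH-2774 and 4 rose and 1 fell in OVSAHO, with medians of 0.04 and 0.22. NR4A1 and NR4A2, orphan receptors that form dimers with RXR, rose in both lines. NR4A1 had log2 changes of 1.39 ± 0.23 and 1.33 ± 0.22, and NR4A2 of 1.18 ± 0.25 and 0.99 ± 0.25. The NR4A2 call in OVSAHO (edgeR adjusted p = 0.011) was not recomputed in other settings. VDR, the vitamin D receptor gene, went from 2.91 ± 0.898 to 6.02 ± 0.929 CPM in OVSAHO and did not pass in MDAH-2774, at 35.8 ± 1.84 and 26.4 ± 2.14 CPM. The thyroid hormone receptor gene THRB fell by 0.82 in OVSAHO.

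Of 16 coregulator genes, 2 rose and 4 fell in MDAH-2774 and 0 rose and 3 fell in OVSAHO, with medians of -0.06 and -0.11. NCOA1, a coactivator gene, fell in both, by 0.33 and 0.41 on the log2 scale, although the MDAH-2774 call was lost without treated replicate 2 or 3 or vehicle replicate 1 (adjusted p = 0.12, 0.09 and 0.11). CREBBP, an acetyltransferase gene, rose by 0.47 in MDAH-2774. The calls of NCOA3 in MDAH-2774 (-0.24) and of NCOA2 (-0.43) and MED1 (-0.23) in OVSAHO were also lost on leaving out 1 library. For NCOA3 these were treated MDAH-2774 replicates 1 and 2 and vehicle replicates 1 and 3 (adjusted p = 0.12, 0.075, 0.099 and 0.0504). For NCOA2 they were treated MDAH-2774 replicate 1 (0.059), treated OVSAHO replicates 1 and 3 (0.15 and 0.058) and vehicle OVSAHO replicates 1 and 2 (0.09 and 0.12), and for MED1 treated OVSAHO replicate 3 (0.062).

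**Figure D4:**
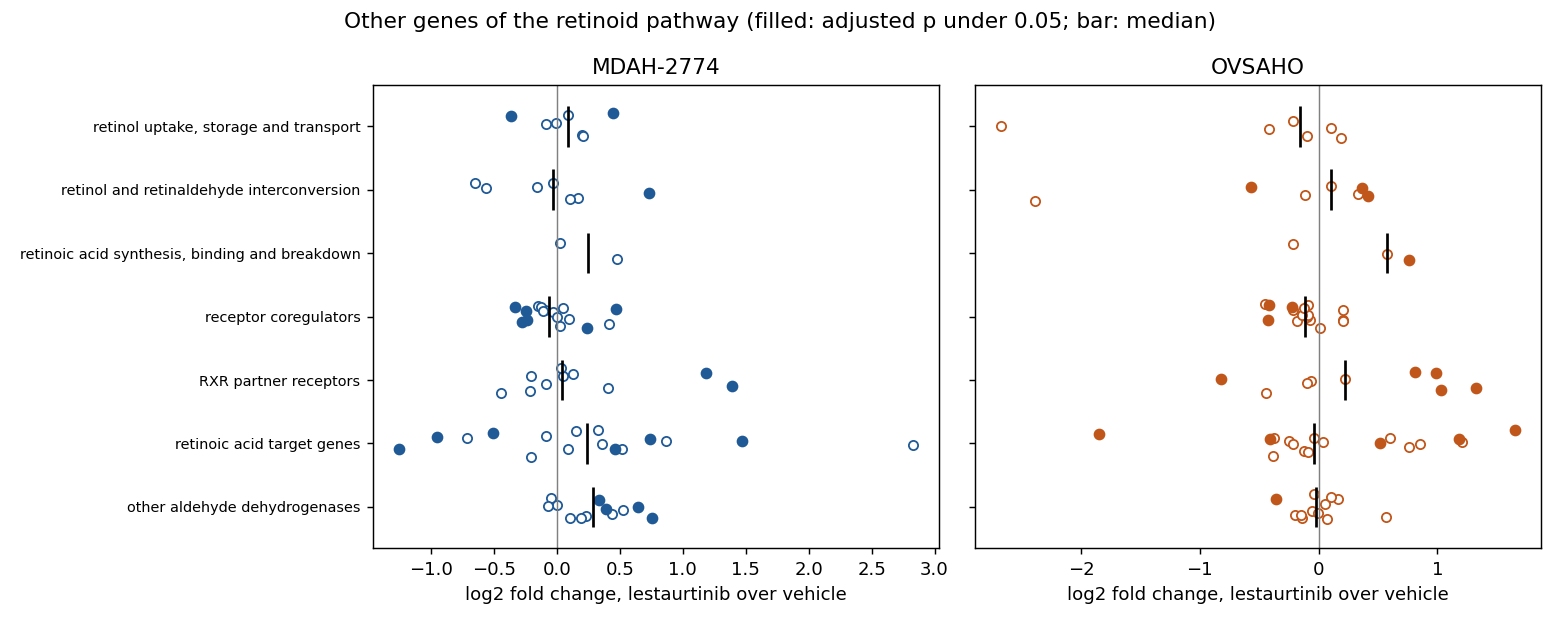
Log2 fold change of lestaurtinib over vehicle (x axis) of the other retinoid pathway genes, 1 point per gene, by list (y axis) in MDAH-2774 and OVSAHO. Filled points had an adjusted p under 0.05, bars are list medians, and genes with no counts in a group or under 3 counts in every library are left out. Points fall on both sides of 0 in most lists, and the other aldehyde dehydrogenases have 4 filled points right of 0 in MDAH-2774.

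The genes with the pattern most like a member's were those with the smallest root mean square difference of log2 CPM, each centred over the 12 libraries, among 10966 genes. For ALDH1A1 they were GRIN2A, DAPL1 and LMO3, at 0.32, 0.46 and 0.50 log2 units, none of which had a count in MDAH-2774. For ALDH1A3 they were SQOR, SEMA3C and CHRNA7, at 0.31, 0.34 and 0.41. SQOR had a log2 change of -1.19 under the drug in MDAH-2774, whereas SEMA3C and CHRNA7 did not pass there. For CRABP2 they were MICAL2, BHLHE40 and DCBLD2, at 0.29, 0.31 and 0.32, with log2 changes of -1.03, -1.25 and -0.93 in MDAH-2774. In OVSAHO their changes were -0.30, -0.41 and -0.21, beside -0.82 for CRABP2, and DCBLD2 did not pass there (adjusted p = 0.061). The difference of drug changes between lines passed for all 3 (adjusted p = 0.00074, 0.0021 and 7.4e-05) and not for CRABP2. For DHRS3 they were NHLRC2, GCFC2 and TMLHE, at 0.10, 0.12 and 0.12.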

How the data were processed

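Libraries were TruSeq stranded mRNA, from miRNeasy total RNA, per the labels. The submitters' processing notes list STAR 2.7.3a, featureCounts 2.8.2 and the hg38 build; how strand was set in counting is not stated there. Raw counts of reads per gene were deposited, whole and unscaled. RPKM values were deposited beside them, already scaled by the authors for gene length and depth.

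All 12 libraries entered a single edgeR 4.0.16 quasi-likelihood model (R 4.3.3, limma 3.58.1) with TMM scaling and group means as terms. Genes below the filterByExpr limit (count 10) were dropped, 371 in all, leaving 13498. Benjamini-Hochberg adjustment ran over these, with calls at 0.05, in 4 comparisons. SE and intervals derive from the F statistic. The code was tested on simulated data. Alternatives were RLE and upper-quartile scaling, no filter or at least 1 CPM in 6 libraries, DESeq2 1.42.0, limma on log2(RPKM + 1) and log2(RPKM + 0.1), a replicate block, a separate model per line, and removal of single libraries.

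Members and lists were chosen with earlier results of these data known. Besides all 8 members, the text names 11 pathway genes listed by name, where measured (1 further gene of that rule is not reported here), up to 3 called genes per list and line with the lowest adjusted p and at least 1 CPM, and the 3 genes of at least 5 CPM most alike to each of 4 members. Tables and plots were made in Python 3.11.15 with pandas 2.3.3 and matplotlib 3.10.9.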

Additional observations from a re-analysis of the deposited data

Results flagged for a closer look

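A difference of the drug change between the lines, tested in the edgeR fit over all genes (OVSAHO minus MDAH-2774, log2, adjusted p under 0.05), set apart 17 of the 32 genes named here that had counts in every group. Most of these genes were named for a low adjusted p in a drug comparison, so this share is not set against that of all genes. Among the 8 retinoid genes this was ALDH1A3 at 0.74, lower with the drug in MDAH-2774 and near 0 change at a low level in OVSAHO.

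Among carriers and enzymes, FABP5 differed by 0.74 and RDH11 by 0.52, with the higher change in OVSAHO. PNPLA4 at -0.55, DHRS7 at -0.54 and RDH10 at -0.32 had the lower change in OVSAHO. The calls of DHRS7 and RDH10 stood near the threshold (edgeR adjusted p = 0.0495 and 0.042). For single genes outside the 8, this difference was not recomputed in the other settings. RDH10 rose in both lines, more in MDAH-2774.

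Among retinoic acid targets, TGM2 differed by 2.60, TNFAIP2 by 1.02, BHLHE40 by 0.85 and GPRC5A by 0.72, and PLAAT4 by -2.72, the last with under 1 CPM in MDAH-2774. TGM2 and TNFAIP2 fell in 1 line and rose in the other.

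VDR differed by 1.48 and CREBBP by -0.45. The other aldehyde dehydrogenase genes ALDH5A1, ALDH3B1, ALDH7A1 and ALDH3A2 differed by -0.78, -0.68, -0.48 and -0.36. ALDH1A1 could not be compared, since it had no counts in MDAH-2774.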

How the results depend on the processing

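The drug changes of ALDH1A1 (OVSAHO), ALDH1A3 (MDAH-2774) and CRABP2 (both lines) kept their direction and their call under every alternative run, with ranges of -2.28 to -1.51, -0.69 to -0.62, -1.32 to -1.21 and -1.10 to -0.69 on the log2 scale. Of 595 recomputed values of the 8 genes, 562 kept direction and side of the threshold. The signs that turned belong to changes that passed in none of these settings. For RARA in MDAH-2774 the value became 0.015 with upper-quartile scaling, 0.025 and 0.041 in limma on log2(RPKM + 1) and log2(RPKM + 0.1), and ran from -0.14 to 0.11 on leaving out 1 library. For RARA between vehicle lines it became -0.064 and -0.099 in the same limma settings and ran from -0.071 to 0.21. For RXRB in OVSAHO it was -0.0046 with upper-quartile scaling and ran from -0.038 to 0.076. On leaving out 1 library in OVSAHO, ALDH1A3 ran from -0.12 to 0.16, RARG from -0.0098 to 0.11 and RXRA from -0.031 to 0.19.

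Leaving out 1 library moved the count of genes called in MDAH-2774 from 2312 to between 1463 (without treated MDAH-2774 replicate 2; 1499 without replicate 1) and 2462, and retinoid genes called for the difference between lines from 1 to between 1 and 2. The calls of NCOA1 and NCOA3 (MDAH-2774) and NCOA2 (OVSAHO) were also lost in limma on RPKM with either pseudocount, that of STRA6 (MDAH-2774) with 0.1 only, and those of NCOA3 and MED1 with the block. The same replicate numbers in treated and vehicle groups did not deviate together over all genes (correlations of same-numbered libraries -0.06 to 0.01). Such values cannot show that same-numbered libraries were not paired, since a shared effect on few genes could give them too. With the replicate block, 1873 genes were called in MDAH-2774, 1756 in OVSAHO and 1758 for the difference, and 2 retinoid genes in each line. Depth limits ALDH1A1 in MDAH-2774, where 3 counts correspond to at most 0.0773 CPM in vehicle libraries, and genes under 1 CPM.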
